A study of Drosophila melanogaster with 4 samples.

Results

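Of the 15634 transcripts measured in 2 *Drosophila melanogaster* cell lines, 193 (1.23%) were bright in Kc cells and dim in Mbn2 cells. They were chosen by their measured levels: the mean of the 2 Kc arrays had to be over 8 and the mean of the 2 Mbn2 arrays under 6, in log2 units of the deposited RMA expression values. RMA (robust multi-array average) gives 1 value per transcript and array from the brightness of several probes. Bright and dim stand for these limits throughout. A dim value shows only that the probes gave little light, because no background level or detection call was used here. Kc is an established line from embryos, grown in serum-free CCM3 medium, and Mbn2 is an established line from larval blood cells carrying the l(2)mbn tumour mutation, grown in M3+BPYE medium with 10% FCS (fetal calf serum). Both were untreated, each gave 2 samples described as biological replicates, and each sample had its own single-colour (Cy3) NimbleGen array. Line and medium cannot be told apart in this design, and each line is a single model of its kind.

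Fly haemocytes, the blood cells, engulf microbes and dying cells, lay down matrix and make immune proteins, and cell lines such as Kc and Mbn2 are widely used as models of them. In the fly genome, genes with a common pattern of activity often lie side by side, many of them copies of one another that arose by duplication. The rows here are named by FlyBase transcript identifiers, whose numbers follow the chromosomes only in part, as described below.

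The rows carry no gene symbols. The gene table of RefSeq for assembly Release 6 plus ISO1 MT names 44 of the 15634 rows through identifiers listed among its synonyms, and 3 of the 193 members are among them. The other 190 members are unnamed and are given by identifier. None of the 28 marker genes listed for haemocytes, crystal cells, lamellocytes and other tissues is among the named rows, so the labelled cell types could not be checked against markers. The arrays had nearly the same distribution of values, with medians of 8.62 and 8.53 in Kc and 8.57 and 8.58 in Mbn2.

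**Figure D1:**
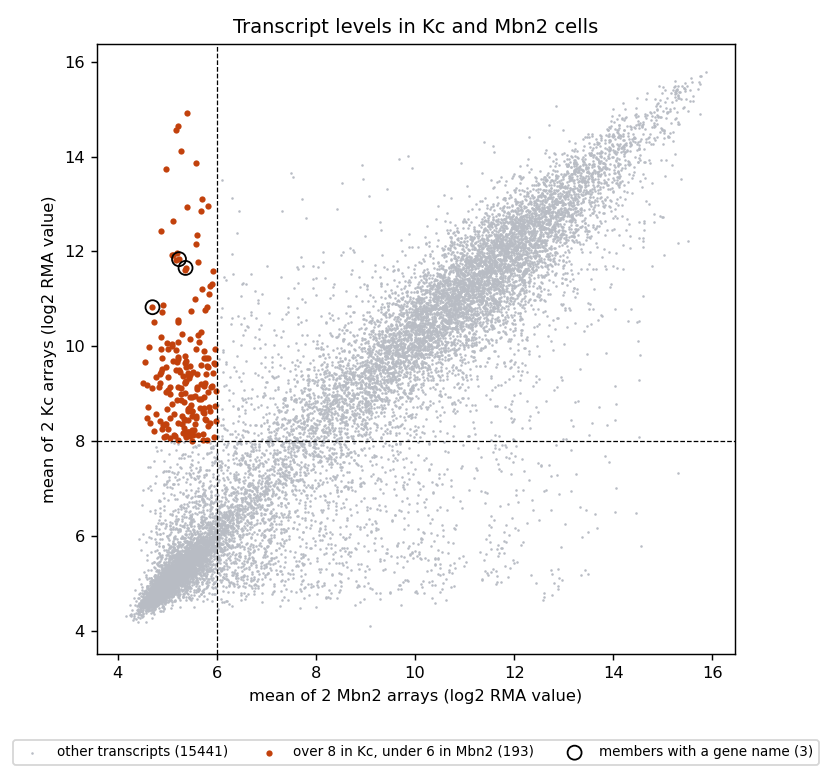
Each point is 1 transcript, at the mean of its 2 Mbn2 arrays on the x axis and of its 2 Kc arrays on the y axis, both in log2 RMA units. Dashed lines mark the limits of 6 and 8; the 193 members fill the corner above 8 in Kc and below 6 in Mbn2, and black rings mark the 3 with a gene name.

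The 3 named members were all far from the limits. NaPi-III (FBtr0076213, chromosome arm 3L) is named for the type III sodium-phosphate cotransporters, membrane proteins that carry inorganic phosphate into cells. Its log2 values were 11.60 and 11.71 in Kc, against 5.48 and 5.26 in Mbn2. The difference, Kc minus Mbn2, was 6.28 with a standard error of 0.12. FBtr0081102 and FBtr0081122, both from chromosome arm 2L, each hold a pair of open reading frames with gene names of their own: CG42305 (upstream) and CG17325 on the first, CG42502 (upstream) and CG10570 on the second. One array value stands for both frames. FBtr0081102 had values of 10.96 and 10.68 in Kc, against 4.79 and 4.62 in Mbn2, a difference of 6.12 (standard error 0.14). FBtr0081122 had values of 11.82 and 11.86 in Kc, against 5.24 on both Mbn2 arrays, a difference of 6.60 (standard error 0.10). In all 3 transcripts both Kc arrays stood above both Mbn2 arrays, and the replicates of a line differed by at most 0.28. These differences are the values that chose the members and are not tested here.

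The members covered a wide range in Kc and a narrow one in Mbn2. Their Kc means ran from 8.001 to 14.92 with a median of 9.22, and their Mbn2 means from 4.51 to 5.99 with a median of 5.38. In Kc, 79 members lay between 8 and 9, 68 between 9 and 10, 32 between 10 and 12 and 14 above 12. The difference between the lines ran from 2.14 to 9.51 with a median of 3.89. RMA values at least 3 log2 units apart were found for 157 members, and at least 6 apart for 23. No fold is given for single members, since the true size of a difference from a dim value is unknown. All 193 had a limma adjusted p under 0.05 towards Kc, as did 27.0% of all transcripts; the choice of members fixed that count and nothing is read from it.

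The means of these same arrays chose the members, so their single values are a description. The member median was 9.27 and 9.18 on the Kc arrays, against 5.37 and 5.40 on the Mbn2 arrays. Of the 193, 166 had both Kc arrays over 8 and both Mbn2 arrays under 6. In 16 members 1 Kc array was at or below 8, and in 12 members 1 Mbn2 array was at or above 6, with FBtr0086566 counted in both.

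**Figure D2:**
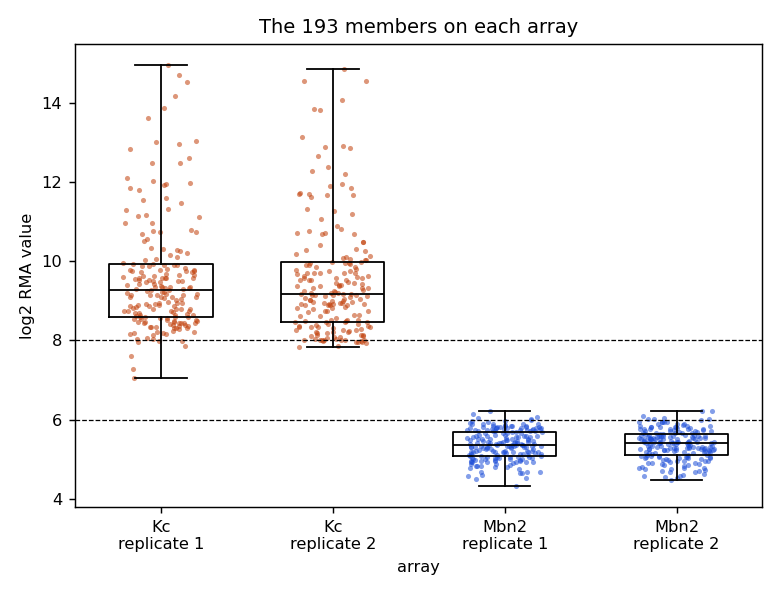
Points are the 193 members on each of the 4 arrays, in log2 RMA units; boxes show the quartiles and median, whiskers the lowest and highest value, and dashed lines the limits of 8 and 6. On the Kc arrays the medians are 9.27 and 9.18, and on the Mbn2 arrays 5.37 and 5.40.

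The 10 members whose RMA values were farthest apart all had Kc means over 12, as did 14 members in all. The rule holds Mbn2 means under 6, so a wide difference goes with a bright Kc value by construction. FBtr0071777 had 14.97 and 14.87 in Kc, against 5.37 and 5.44 in Mbn2. FBtr0083508 had 14.70 and 14.58 in Kc, against 5.19 and 5.23 in Mbn2, and FBtr0083507, the row just before it, had 14.55 and 14.56 in Kc, against 5.27 and 5.07 in Mbn2. The next 7 were FBtr0073967, FBtr0084970, FBtr0086522, FBtr0076116, FBtr0071778, FBtr0091633 and FBtr0091785, with differences of 8.85, 8.75, 8.30, 7.57, 7.54, 7.52 and 7.40. None of the 10 has a gene name here, and the order among them is that of RMA values only.

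Members were more common among modestly bright rows than among very bright ones. Of the 988 rows with a Kc mean between 8 and 9, 8.0% were members, and the share was 5.17% of 1316 rows between 9 and 10, 0.902% of 3549 between 10 and 12 and 0.561% of 2494 above 12. On the Mbn2 side the members did not sit at the very bottom of the scale. Their median of 5.38 compares with 5.13 for the 5085 other rows under 6 in Mbn2. A mean under 5 in Mbn2 was found for 18.1% of members and 36.0% of those other rows, and a mean over 5.5 for 36.8% and 21.1%. Levels of different transcripts depend on their probes, so these shares describe the sets and not amounts of RNA. The dim values were still repeatable, with r = 0.80 between the Mbn2 arrays over the 193 members, and r = 0.84 over the 4586 transcripts dim in both lines; transcripts are not independent replicates, and the arrays share their probes.

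The limits cut through a continuous range. Just inside the Kc limit were FBtr0074103, FBtr0075971 and FBtr0080945, with Kc means of 8.001, 8.018 and 8.024 beside Mbn2 means of 5.496, 5.794 and 5.215. Just outside it were FBtr0084768, FBtr0077039 and FBtr0074827, with Kc means of 7.995, 7.990 and 7.974 beside Mbn2 means of 5.505, 5.069 and 5.538. Just inside the Mbn2 limit were FBtr0076381, FBtr0081996 and FBtr0084601, with Mbn2 means of 5.99, 5.97 and 5.96. The nearest rows outside it were FBtr0084971, FBtr0078621 and FBtr0086087, all at 6.02. In all, 47 members had a Kc mean under 8.5, and 54 rows fell short of the Kc limit by less than 0.5 while dim in Mbn2. Likewise 71 members had an Mbn2 mean over 5.5, and 62 rows bright in Kc missed the Mbn2 limit by less than 0.5.

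The median absolute difference between the replicates of a member was 0.19 in Kc and 0.19 in Mbn2. The median replicate difference was larger in members than in other rows of the same range, but large replicate differences were more common in members in some ranges and less common in others. Between 8 and 9 in Kc the median replicate difference was 0.27 for members and 0.19 for other rows, between 9 and 10 it was 0.20 and 0.12, and above 12 it was 0.10 and 0.08. In Mbn2 it was 0.19 for members and 0.13 for the other rows under 6, whose median level was lower (5.38 for members and 5.13 for the others), so these sets were not matched for brightness. Replicates over 0.5 apart in Kc were found for 19.0% of members and 9.68% of other rows between 8 and 9, and for 7.35% and 3.77% between 9 and 10. Between 10 and 12 they were found for 0 of 32 members and 0.967% of other rows, and above 12 for 0 of 14 members and 0.484% of other rows. In Mbn2 they were found for 1.55% of members and 2.22% of the other rows under 6. The Kc replicate 1 value was the higher one for 98 of the 147 members with a Kc mean up to 10 (66.7%), and for 67.9% of the 2157 other rows in that range.

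A few members rested on unlike replicates. The widest Kc pair was that of FBtr0075637, at 7.06 and 9.18 in Kc, against 5.13 and 5.14 in Mbn2. FBtr0086566 was the widest in Mbn2 and the second widest in Kc, at 7.27 and 8.78 in Kc, against 6.13 and 5.31 in Mbn2. FBtr0078197 had 8.32 and 9.53 in Kc, against 5.72 and 5.75 in Mbn2. The other wide Mbn2 pairs were those of FBtr0078024, at 5.92 and 5.22, and FBtr0082177, at 5.69 and 6.21, with Kc values of 11.17 and 10.83 and of 9.73 and 10.15.

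Rows chosen on 1 array per line gave much the same picture on the other array of each line. The limits themselves were set with earlier results of these data known, so the arrays read are not independent of them. With the same limits applied to the replicate 1 arrays alone, 199 transcripts were chosen, and on the replicate 2 arrays their medians were 9.14 in Kc and 5.41 in Mbn2. Of the 199, 166 (83.4%) passed both limits on the replicate 2 arrays, where 1.22% of all rows did. The median difference was 3.88 on the arrays that chose and 3.67 on the arrays that were read, where the lowest was 1.61. Choosing on replicate 2 gave 190 transcripts, of which 166 (87.4%) passed on replicate 1, where 1.27% of all rows did. In 1 of these 190 the direction turned: FBtr0074691 had Kc values of 6.31 on replicate 1 and 8.07 on replicate 2, against Mbn2 values of 7.08 and 5.70. It is no member, and it was singled out after its values were seen.

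In the order of their identifier numbers, members stood next to other members more often than their share of the table. The 193 members have 386 adjoining places, and 60 of these (15.5%) held another member, where members make up 1.23% of all rows. Put by member, 52 of 193 (26.9%) had a member directly before or after them, against 322 of the 15441 other rows (2.09%). The members formed 22 runs of 2 or more at consecutive rows, with 30 adjoining pairs, of which 24 had identifier numbers that differ by exactly 1. The remaining 141 members (73.1%) stood alone. These shares are given without a test, since rows of an array are not replicates.

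The excess faded within a few rows. At 2 rows from a member 6.22% of places held a member, at 3 rows 2.59%, at 4 rows 2.07% and at 5 rows 1.04%. From 6 to 10 rows it lay between 0.519% and 2.08%, and it was 2.08% at 20 rows, 1.56% at 50 rows and 0.519% at 100 rows. Transcripts of the opposite kind, dim in Kc and bright in Mbn2, make up 1.67% of the table. They took 0.518% of the places at 1 row and 1.30% at 5 rows, and 2 members (1.04%) had one directly beside them, where 2.75% of all rows outside the opposite set had one. The opposite transcripts, 261 in all, kept company with each other in the same way: 18.0% of their adjoining places held one of their own kind. Likeness of adjoining rows was general in the table. The 4586 transcripts dim in both lines had another of these in 57.6% of adjoining places, against 29.3% of all rows. The design text counts 15634 genes on the array, the same as the number of rows, so by that text each row would be a separate gene, which was not checked here. Whether adjoining rows are transcripts of 1 gene, copies of a gene that share probe sequence or separate neighbours was not tested. This is because the rows are unnamed and no probe sequence was used.

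**Figure D3:**
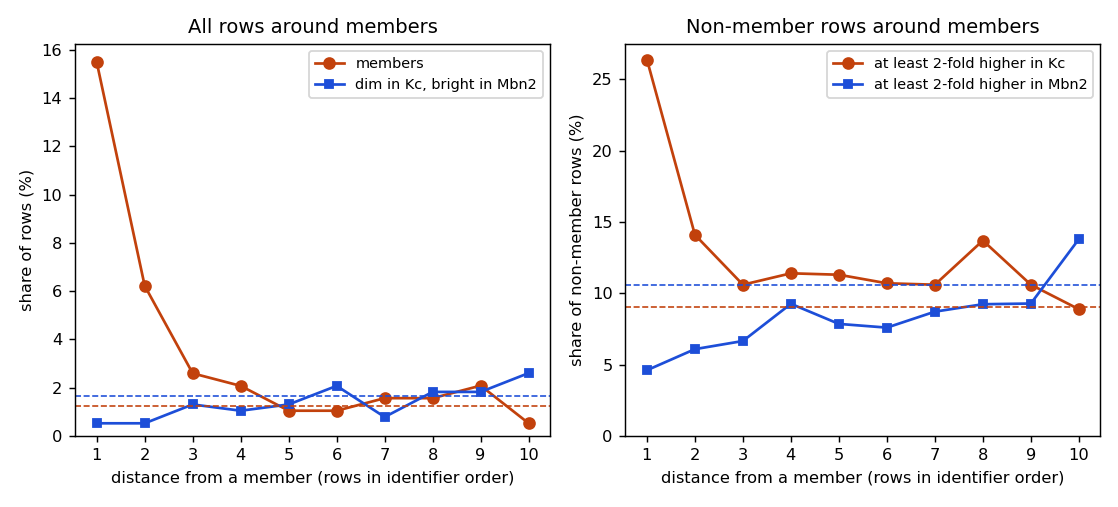
The x axes give the distance from a member in rows of identifier order. Left, the share of rows at that distance that are members (15.5% at 1 row) or dim in Kc and bright in Mbn2; right, the share of non-member rows that are at least 2-fold higher in Kc (26.4% at 1 row) or in Mbn2 (4.6% at 1 row). Dashed lines of the same colour give the share over the whole table on the left and over all non-members on the right.

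The rows beside members that were not members themselves also leaned towards Kc. The rule did not choose these 322 rows, apart from leaving out any that were members. Their median difference was 0.31, with quartiles of -0.06 and 1.08, against 0.04 for the 15119 rows that are neither members nor beside one. At least 2-fold higher values in Kc were found for 84 of the 322 (26.1%), where 9.07% of all non-members had them. At least 2-fold higher values in Mbn2 were found for 15 (4.66%), where 10.6% of all non-members had them. By limma, 150 (46.6%) were higher in Kc and 30 (9.32%) higher in Mbn2 at an adjusted p under 0.05, where 26.1% and 21.5% of all non-members were. Both Kc arrays stood above both Mbn2 arrays in 194 of the 322 (60.2%), where 39.7% of all non-members had this order. Transcripts over 9 in both lines had a median difference of 0.11 towards Kc, so small leans are read against that shift.

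Each array showed this lean. Relative to a row's mean over the 4 arrays, the median deviation of the 322 rows was 0.17 and 0.18 on the Kc arrays, against -0.18 and -0.15 on the Mbn2 arrays (the 4 deviations of a row add up to 0). In the rows elsewhere it was -0.01 and 0.05 on the Kc arrays, against -0.03 and -0.02 on the Mbn2 arrays. The rows were also divided by the same limits, so the line difference itself decides in part which class a row falls in and the classes are not ranked by it. The 136 rows beside members that were bright in both lines had a median difference of 0.38, against 0.12 for the 7551 bright rows elsewhere. The 92 that were dim in both lines had one of 0.06, against 0.01 elsewhere. The 92 rows that fell between the limits in at least 1 line had one of 1.18, against 0.07 for 2815 such rows elsewhere. Among them 8 had RMA values at least 3 log2 units apart and missed membership by 1 limit. FBtr0081123 was the widest, at 13.49 and 13.64 in Kc, against 7.39 and 7.71 in Mbn2, followed by FBtr0071329, at 12.00 and 11.88 in Kc, against 6.45 and 6.16 in Mbn2. These 2 were named after their values were seen.

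Beyond the members, a row's difference between the lines resembled that of the next row in part, over the table as a whole. Over 15277 pairs of adjoining non-member rows the differences correlated at r = 0.30, falling to 0.15 at 2 rows, 0.06 at 5 rows and 0.003 at 100 rows. These values describe rows, which share the 4 arrays. The pairs include the opposite transcripts, and no value by region is given.

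The longest run held 5 members, FBtr0076376, FBtr0076378, FBtr0076379, FBtr0076380 and FBtr0076381. Their Kc values all lay between 8.34 and 9.36, against 4.77 to 6.22 in Mbn2. Per row, the Kc means were 8.48, 9.04, 9.26, 9.14 and 9.07, against Mbn2 means of 5.06, 4.98, 5.37, 4.84 and 5.99. The rows just before it were dim in both lines and those just after it bright in both. FBtr0076375 had means of 4.94 in Kc and 4.61 in Mbn2, and FBtr0076382 had 14.75 in Kc and 14.50 in Mbn2. These flanking rows also leaned towards Kc, by 0.47 and 0.33 before the run and by 0.24 and 1.19 after it. The general shift of transcripts over 9 in both lines was 0.11 towards Kc. Flanking rows of other runs did not all lean towards Kc, as given below.

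The run of 4 from FBtr0071777 to FBtr0071780 held the transcript with the widest gap of all. FBtr0071777 was given above, and FBtr0071778 had 12.96 and 12.90 in Kc, against 5.18 and 5.60 in Mbn2. FBtr0071779 had 10.75 and 10.69 in Kc, against 4.93 and 4.86 in Mbn2. FBtr0071780 had 10.03 and 9.96 in Kc, against 4.96 and 5.25 in Mbn2. The lean went on for a further 2 rows that were not bright enough to be members. FBtr0071781 averaged 6.96 in Kc and 5.39 in Mbn2, and FBtr0071782 averaged 6.14 in Kc and 5.19 in Mbn2. Before the run, FBtr0071774 and FBtr0071775 had differences of 0.77 and -0.83, the latter with unlike Mbn2 values of 6.74 and 5.08.

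The other long runs held 3 members each. FBtr0083507 and FBtr0083508, both over 14.5 in Kc on every array, were followed by FBtr0083509, at 8.396 and 8.334 in Kc, against 4.996 and 4.963 in Mbn2. The rows FBtr0083504 and FBtr0083505 before them were bright in both lines, at means of 12.63 and 12.33 in Kc, against 11.65 and 11.82 in Mbn2. After the run, FBtr0083511 and FBtr0083512 were dim in both lines, with differences of -0.09 and 0.26. This run lay in the richest of 157 stretches of 100 rows (the last shorter), from FBtr0083454 to FBtr0083605, which held 8 members. The other 5 members there were FBtr0083470, FBtr0083525, FBtr0083534, FBtr0083560 and FBtr0083587, with differences of 2.78, 4.93, 5.32, 4.55 and 3.67. Among the 157 stretches 60 held no member and 15 held 4 or more.

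FBtr0072488, FBtr0072490 and FBtr0072492 averaged 8.36, 8.92 and 8.89 in Kc, against 5.57, 5.49 and 5.67 in Mbn2. The next row, FBtr0072493, averaged 9.42 in Kc and 6.54 in Mbn2 and so missed the dim limit, and the row after it, FBtr0072495, was again a member, at 11.31 in Kc and 5.90 in Mbn2. The last long run, FBtr0090007, FBtr0090009 and FBtr0090012, had nearly equal values in its 3 rows, with means of 9.46, 9.41 and 9.39 in Kc, against 5.52, 5.61 and 5.45 in Mbn2. The flanking rows of this last run had differences of -0.19 and 0.42 before it and of -0.13 and 0.11 after it. Near-equal values in adjoining rows were not checked for shared probes.

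**Figure D4:**
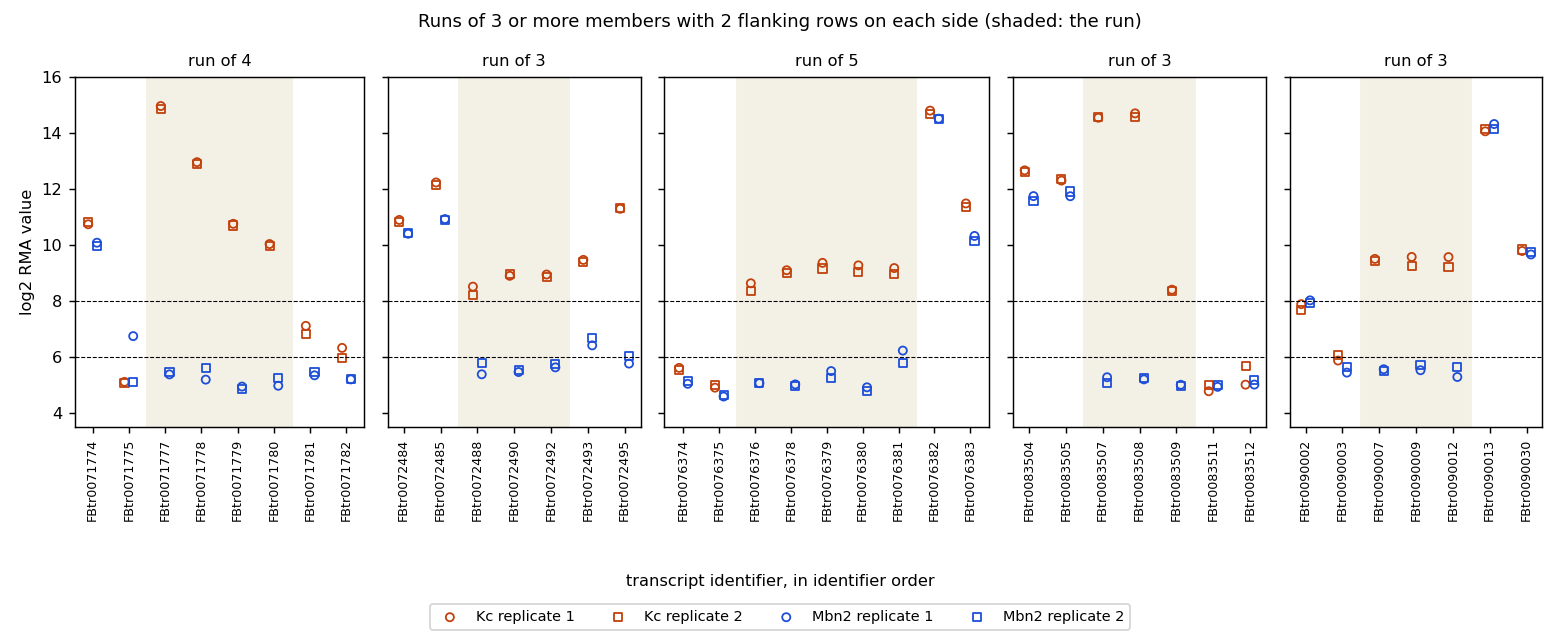
Each panel shows 1 run of 3 to 5 members (shaded) with 2 rows on either side, in identifier order; the y axis is the log2 RMA value, with Kc in orange and Mbn2 in blue, circles for replicate 1 and squares for replicate 2. Within each run all Kc values lie above 8 and all Mbn2 values below 6, apart from 1 Mbn2 value of 6.22, and the unshaded FBtr0072495 at the right of the second panel is also a member.

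The 17 runs of 2 included the named FBtr0081102 and the next row. FBtr0081103 had 10.30 and 10.09 in Kc, against 4.80 and 4.93 in Mbn2, close to the pattern of FBtr0081102. In the pair FBtr0072821 and FBtr0072822 both rows were over 12 in Kc, with means of 12.34 and 12.86 in Kc, against 5.60 and 5.69 in Mbn2. Some pairs were uneven, such as FBtr0086522 and FBtr0086523, with means of 13.87 and 9.68 in Kc, against 5.57 and 5.19 in Mbn2. These last 2 pairs were picked after their values were seen.

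Identifier order follows the chromosomes only in part. Of the 43 consecutive pairs among the 44 named rows, 33 were on the same chromosome arm, 19 of them in increasing and 14 in decreasing order of position. In the RefSeq annotation CG10570 with CG42502 and CG17325 with CG42305 are direct neighbours, with 0 other genes starting between them, yet their transcripts FBtr0081122 and FBtr0081102 were 20 identifier numbers apart. Of the 11 rows between these, 1 was a member (FBtr0081103), 7 were dim in both lines and 3 were bright in both. On the far side of FBtr0081122 stood FBtr0081123, the widest of the near misses described above. Around NaPi-III the row before, FBtr0076211, was bright in both lines, at means of 11.25 in Kc and 10.90 in Mbn2. The row after it, FBtr0076214, averaged 6.15 in Kc and 5.26 in Mbn2, and the one after that, FBtr0076215, was a member, at 9.59 and 9.91 in Kc, against 5.71 and 5.83 in Mbn2.

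**Figure D5:**
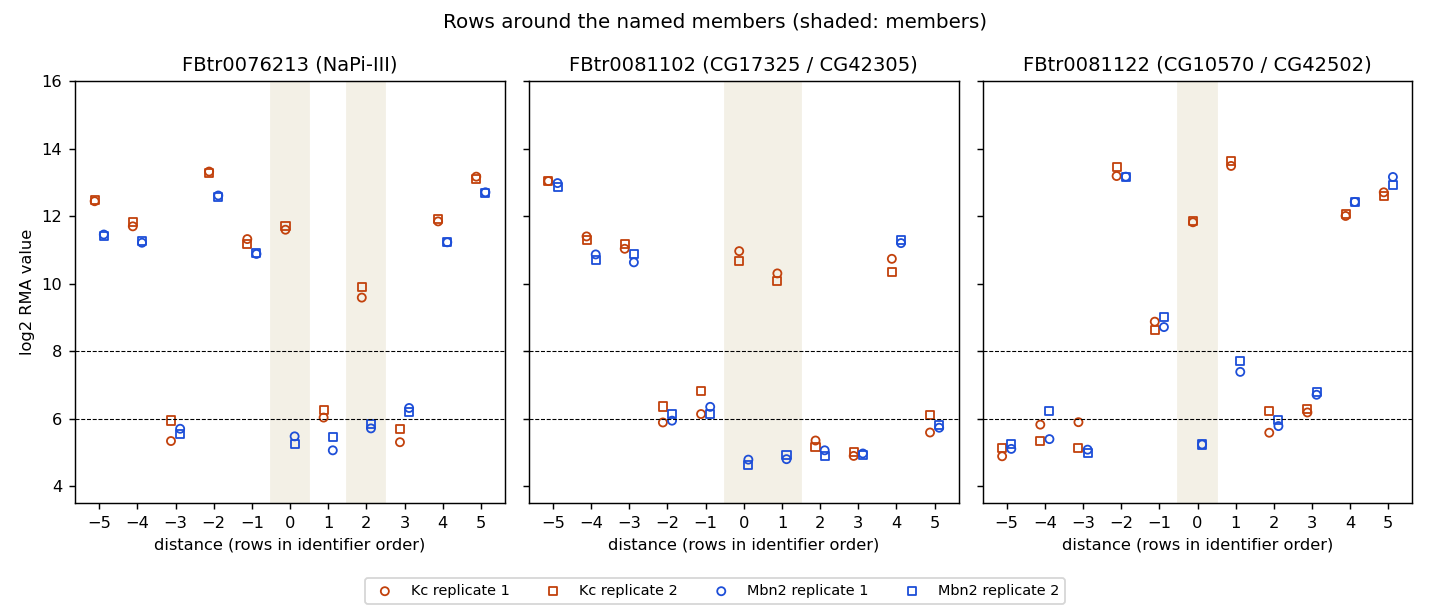
The 3 named members (at 0) with 5 rows on either side in identifier order; the y axis is the log2 RMA value, with Kc in orange and Mbn2 in blue, and members are shaded. A second member lies 2 rows after NaPi-III and 1 row after FBtr0081102, and the row after FBtr0081122 averages 13.56 in Kc and 7.55 in Mbn2.

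Over longer distances the members were spread through the whole table. In 15 consecutive blocks of 1000 rows the count ran from 6 to 23 members, highest between FBtr0075155 and FBtr0076415 (2.3% of rows) and between FBtr0071312 and FBtr0072566 (21 members, 2.1%), and lowest between FBtr0077749 and FBtr0079065 (0.6%). The last 634 rows, up to FBtr0100886, held 14 (2.21%). The block richest in members held 8 of the opposite transcripts, and the one with the most opposite transcripts, 30, held 9 members. Other blocks did not show this contrast. The block with the fewest members, 6, also held the fewest opposite transcripts, 6, and the block with 21 members held 17. No test was made of these counts.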

How the data were processed

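Transcript levels were measured in Kc and Mbn2 cells on 4 single-colour arrays, 2 per line, which carry 12 probes (60-mers) per gene, spotted in duplicate, per the series' design text. The deposited values are on the log2 scale and were made with RMA, per the submitters' processing notes. No version or setting of it and no annotation release or build is given in the sources used here. No coordinates are printed for this reason. RMA as usually run equalises the arrays' distributions and compresses dim differences. Nothing in the files gives signal over background, and precision is limited by there being 4 arrays.

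Members were rows with a Kc mean over 8 and an Mbn2 mean under 6. The members, limits and lists were chosen with earlier results of these data known. All rows were fitted with limma 3.58.1 in R 4.3.3 (lmFit, eBayes, two-sided, no covariate), with Benjamini-Hochberg adjustment over all 15634 rows. It was tested on simulated data, where an early random draw gave false calls above the nominal rate and later draws gave fewer. The simulation changed far fewer rows than were called in the real data, so its false-call rate does not carry over to them. The fit served for standard errors and for the shares of rows called at an adjusted p under 0.05. The design text does not say whether replicates were separate cultures, so p-values measure the spread between these samples. Rows were sorted by the number in the identifier for all counts of neighbours; no resampling was used.

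Named transcripts were the members with a gene symbol, the 10 with the largest difference and members in runs of 3 or more. So were the 3 members inside and the 3 rows outside each limit, and the 3 members with the widest replicates in each line. Outside this list, rows near the runs and named members, members of the richest stretch and the ends of blocks and stretches are named. Other exceptions are marked. Alternatives were other limits, a replicate block, an intensity trend, a second quantile normalization, centring, a filter on dim rows, log2(value + 16), other definitions of a neighbour and leaving out each array.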

Additional observations from a re-analysis of the deposited data

How the results depend on the processing

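The number of members depended on the limits. It was 193 as reported, 72 with limits of 9 and 5.5, and 329 with limits of 7 and 6, and the median difference was 3.89, 4.66 and 2.92 under these limits. It was 3.44 with log2(value + 16), which lowers differences from dim values by construction. That setting also gave 5.82 for FBtr0076213, 5.44 for FBtr0081102 and 6.10 for FBtr0081122. Leaving out single arrays gave 187 to 199 members, median differences of 3.85 to 3.89, and 24.6% to 30.2% of members with an adjoining member. That share was 26.9% as reported and 35.8% when any member within 5 rows counted, against 9.90% of other rows, and without the runs of 3 or more, chosen after seeing the data, it was 19.4%. With limits of 9 and 5.5 the rows beside members had a median difference of 0.59, against 0.31 as reported. It was 0.21 when centred on bright transcripts, a setting also added after seeing the data. Centring lowers the difference of every row by 0.11, also that of the rows elsewhere. Deviations from the line means were nearly uncorrelated between same-numbered arrays (r = -0.05 over all transcripts). Whether same-numbered samples shared a batch was not tested. With a replicate block, limma called 3963 transcripts higher in Kc and 3171 higher in Mbn2, against 4216 and 3314 without it, and the differences of the named members were as before. Centring on bright transcripts gave 3579 higher in Kc and 3950 higher in Mbn2, so that more calls were then towards Mbn2 than towards Kc. Leaving out single arrays gave 3232 to 3873 higher in Kc and 2696 to 3021 higher in Mbn2, with the lone array assumed to vary like the others. Choosing on replicate 2 in place of replicate 1 gave 87.4% past both limits, against 83.4%, and 1 of the 190 rows so chosen, FBtr0074691, turned on the arrays read. What dim values can show is limited by an unknown background.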
